A study of Chlorocebus aethiops with 30 samples.

Results

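KLF6, MYC and CSRNP1 are transcription factors of growth control, and they were taken by name from the deposited comparison of trypsin with TrypLE. All 3 were found among the 1237 genes of that table, and 2 of them, KLF6 and CSRNP1, also stand among the 340 genes of a deposited table of group means. RNA was sequenced from wild-type Vero cells, an established epithelial line from the kidney of the African green monkey. Cells were detached with trypsin at 37 °C or, also at 37 °C, with TrypLE, a recombinant enzyme used in place of trypsin, and were sampled at 0, 8 and 24 h, and the control cells were lifted at 37 °C without enzyme. The 0 h samples were taken straight from the digest. Those of 8 and 24 h had gone back into culture and were then lifted without enzyme, so that these later groups share their means of harvest with the control. The series holds 30 samples in 10 groups of 3, and 3 groups given TrypLE from 4 °C at 25 °C were not analysed here. The replicates are called biological by the submitters without word on whether the cultures were separate, and p-values then measure only how far these samples spread, possibly for technical reasons. All groups come from 1 cell line.

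KLF6 is a zinc finger protein of the Krüppel-like family that binds GC-rich promoters and is known to activate the cell cycle inhibitor CDKN1A and genes of the TGF-beta pathway. MYC pairs with MAX through a helix-loop-helix and leucine zipper, and drives genes of ribosome assembly, metabolism and entry into the cell cycle. CSRNP1 is a cysteine- and serine-rich nuclear protein that was first described as a gene induced by axin, and its relative in Drosophila restrains proliferation. The messages of KLF6 and MYC belong to the early response to serum and injury, in which RNA appears within minutes and decays quickly.

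Library values were available for trypsin and TrypLE at 0 h only. Reads over the listed genes numbered 1656319 to 1827824 in the trypsin libraries and 1957344 to 2192333 in the TrypLE libraries, and the members rested on 772 to 4628 reads in a library. The authors listed a gene only where its unadjusted p was below 0.05, so being listed is a selection and not a result. None of the 6 epithelial, 7 fibroblast, 4 immune and 3 endothelial markers chosen was listed, so the epithelial label could not be checked against marker levels. In bulk RNA, fewer cells expressing a gene and less RNA per cell cannot be told apart.

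All 3 members were lower directly after trypsin than directly after TrypLE, and by unequal amounts. KLF6 stood at 41.4% of its TrypLE level, CSRNP1 at 67.9% and MYC at 71.1%. The authors' deposited table called all 3 at an adjusted p below 0.05, among 1.65% of the 15194 genes adjusted over in either direction and 1.42% on the lower side. Since the members were chosen with these results known, their shared direction is a description.

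KLF6 (gene number 103237791, 4098 bases) had 754.7, 1015 and 955.2 normalized counts in the trypsin libraries, against 2270, 2131 and 2178 in the TrypLE libraries. The highest trypsin library thus reached 47.6% of the lowest TrypLE library, and trypsin replicate 1 lay below the other trypsin libraries. That gives 908 ± 136 for trypsin and 2193 ± 70.6 for TrypLE (mean ± SD, n = 3 each). The gap between the groups, 1116 normalized counts, exceeded the range within the trypsin libraries, 261, and that within the TrypLE libraries, 139. The authors' deposited table puts KLF6 at rank 6 of the listed genes by unadjusted p, with -1.27 for the log2 fold change and 1.51e-19 for the adjusted p. An edgeR quasi-likelihood refit of the listed genes gave -1.27 (95% interval -1.57 to -0.97, adjusted p = 9.11e-06) and called 14.8% of the genes it tested. KLF6 passed in each of the 17 refits of the listed genes, between -1.39 and -1.06. The refits with all libraries called 15.8% of the genes by DESeq2, 12.5% and 11.7% by limma with a pseudocount of 1 and 8, and, by edgeR, 16% with TMM factors, 11.4% with median-ratio factors, 12.9% with no filter, 15.9% at a mean of at least 100, 4.71% with a trend on gene length removed, and 14.7% and 6.67% with the replicate number as a block, without and with that removal.

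Trypsin replicate 1, the lowest library for KLF6, also stood apart along gene length. For listed genes shorter than 1000 bases, the median deviation from the mean of all 6 libraries was -0.11 in this library, -0.48 and -0.35 in the other trypsin libraries, and 0.45, 0.29 and 0.22 after TrypLE, on the log2 scale. Its part in the KLF6 value was not tested beyond leaving it out. Without it the edgeR value of KLF6 was -1.15, still called.

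CSRNP1 (gene number 103221040, 4843 bases) had 1034, 1096 and 1042 normalized counts in the trypsin libraries, against 1412, 1642 and 1618 in the TrypLE libraries. The groups did not overlap, and TrypLE replicate 1 was the lowest of its group. That gives 1057 ± 33.6 for trypsin and 1558 ± 126 for TrypLE (mean ± SD, n = 3 each). The log2 fold change was -0.56 (adjusted p = 0.000214) in the authors' deposited table. The edgeR refit gave -0.56 (95% interval -0.84 to -0.28) with an adjusted p closer to the threshold (0.0418). This call was lost in 8 of the 17 refits. Among them were those with other scaling factors (adjusted p = 0.201 and 0.352 by edgeR), which came from the listed genes alone. Such factors by construction moved the median of the genes tested to -0.13 and -0.09, in place of -0.29. Also among the 8 were those without trypsin replicate 2 or 3 or TrypLE replicate 2 or 3 (adjusted p = 0.062, 0.306, 0.276 and 0.272 by edgeR).

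MYC (gene number 103237430, 2997 bases) had 2788, 2960 and 2757 normalized counts in the trypsin libraries, against 3490, 4241 and 4222 in the TrypLE libraries. Again the groups did not overlap and TrypLE replicate 1 was the lowest of its group. That gives 2835 ± 110 for trypsin and 3984 ± 428 for TrypLE (mean ± SD, n = 3 each). Its log2 fold change was -0.49 (adjusted p = 0.00169) in the authors' deposited table. MYC was not called in the edgeR refit (-0.49, 95% interval -0.77 to -0.21, adjusted p = 0.0984) and passed in 1 of the 17 refits, that with DESeq2 (adjusted p = 0.0128). Its sign was negative in all 17.

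**Figure D1:**
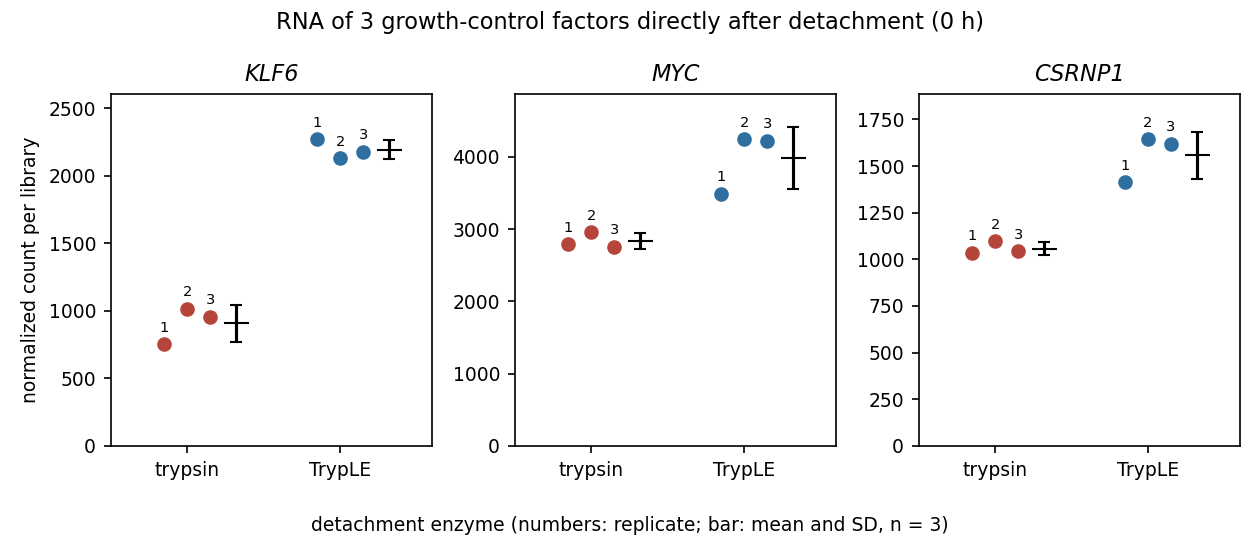
Normalized counts of KLF6, MYC and CSRNP1 (vertical axes) in each library after trypsin (left) and TrypLE (right) at 0 h. Points are libraries with their replicate number, and bars show the mean and SD of 3 libraries. The trypsin libraries lie below the TrypLE libraries in each panel, with the widest gap for KLF6.

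An exact permutation test on log2 counts, two-sided over the 6 libraries, gave p = 0.1 for each member, the smallest value that 3 against 3 allows. Complete separation with trypsin lower was seen for 47% of the listed genes, so the lack of overlap sets the members apart little within that table.

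**Figure D2:**
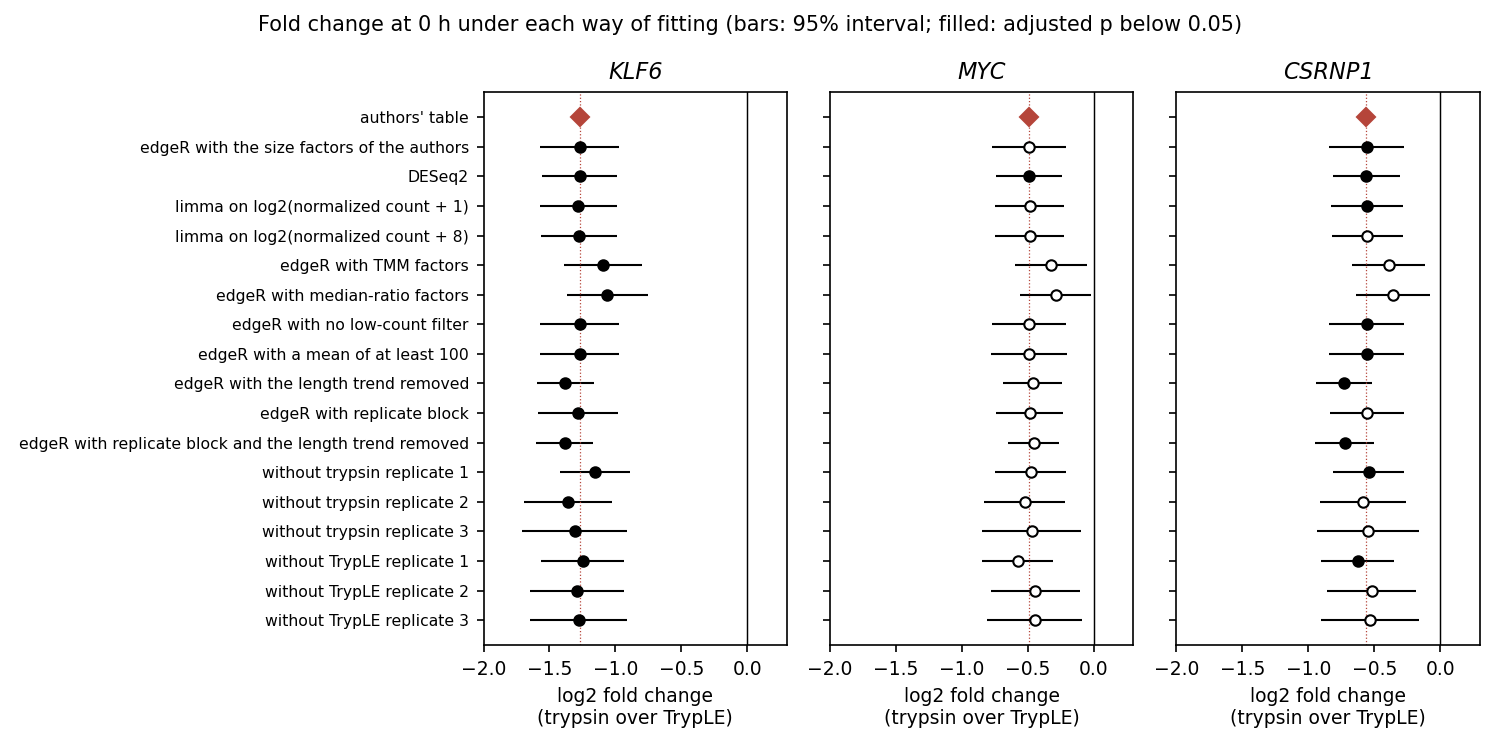
Log2 fold change of trypsin over TrypLE at 0 h (horizontal axis) for each member in the authors' table (diamond) and in 17 refits of the listed genes (circles with 95% intervals, filled where the adjusted p is below 0.05). KLF6 is filled throughout, CSRNP1 in 9 refits and MYC in 1.

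Levels were then compared between the genes per length. On the FPKM scale, MYC averaged 60.1 ± 2.32 for trypsin and 84.5 ± 9.09 for TrypLE (SD, n = 3 each), the highest of the members in both groups. KLF6 averaged 14.1 ± 2.12 after trypsin and 34.0 ± 1.10 after TrypLE. CSRNP1 averaged 13.9 ± 0.440 after trypsin and 20.4 ± 1.66 after TrypLE. KLF6 and CSRNP1 therefore overlapped after trypsin, while KLF6 lay above CSRNP1 in every TrypLE library.

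Ratios taken within a library do not depend on its size factor. KLF6 per length was 19.8%, 25.1% and 25.3% of MYC in the trypsin libraries, against 47.6%, 36.7% and 37.7% in the TrypLE libraries. The difference in the log2 ratio was -0.80, with p = 0.1 in a two-sided exact permutation test, the smallest this design allows. KLF6 per length was 86.2%, 109% and 108% of CSRNP1 in the trypsin libraries, against 190%, 153% and 159% in the TrypLE libraries. That log2 difference was -0.73 with the same p of 0.1 by the exact test. CSRNP1 was at 23.0%, 22.9% and 23.4% of MYC per length in the trypsin libraries, against 25.0%, 24.0% and 23.7% in the TrypLE libraries. Here the log2 difference was -0.07, with p = 0.1 by the exact test. The ratios do depend on a trend on gene length within a library, and with that trend removed the edgeR log2 fold changes of CSRNP1 and MYC lay farther apart, at -0.73 and -0.46. Over these 3 ratios the Benjamini-Hochberg adjusted p stays at 0.1.

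CSRNP1 was also the gene nearest to MYC in pattern, and MYC the second nearest to CSRNP1. Nearness was the root mean square distance between log2 profiles over the 6 libraries, each centred on its own mean, among 996 other listed genes with a symbol and at least 50 normalized counts. CSRNP1 and MYC were 0.04 apart on this log2 scale, against 0.43 between KLF6 and MYC and 0.39 between KLF6 and CSRNP1. The other genes nearest to MYC were LOC103217237, described in the table as like cytoplasmic actin 2, CCN1, a matricellular protein, IL11, a cytokine, and CRIP1, a LIM domain protein, at 0.06 to 0.07. CSRNP1 had CCN1 nearest at 0.04, then, after MYC, the growth factor HBEGF at 0.08, LOC103217237 and CRIP1. Of these neighbours IL11 was called in 0 of the 17 refits, CRIP1 in 0 and LOC103217237 in 1.

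HBEGF had 760.5, 783.7 and 787.9 normalized counts in the trypsin libraries, against 1169, 1189 and 1139 in the TrypLE libraries. CCN1 had 13521, 14176 and 13048 in the trypsin libraries, against 18735, 20268 and 19941 in the TrypLE libraries. Both genes were picked for their nearness to CSRNP1 over these libraries, so a step of similar size between the enzymes follows from that choice. Their groups did not overlap. HBEGF had -0.58 (adjusted p = 4.99e-05) and CCN1 -0.53 (adjusted p = 5.8e-06) as log2 fold change in the authors' deposited table, and like CSRNP1 each lost its call in 8 of the 17 refits. With the length trend removed CCN1 was at -0.33 (adjusted p = 0.23 by edgeR).

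KLF6 had other neighbours. ATF3, a stress-responsive factor, was nearest at 0.13, followed by CCN2, a matricellular protein, at 0.14, FOSB, an AP-1 subunit, at 0.16, LOC103240047, matched in the table to pyruvate kinase PKM, and ATP5ME, a subunit of ATP synthase, both at 0.19. ATP5ME, of 402 bases, was at -0.23 on the log2 scale without the trend on gene length (edgeR, adjusted p = 1), where KLF6 was at -1.38, so its nearness does not hold there. A flat profile would lie 0.65 from KLF6, 0.26 from MYC and 0.29 from CSRNP1. ATF3 is also on the list of reported KLF6 targets, where 1 of 10 genes was listed. It had 681.4, 694.9 and 671.4 normalized counts in the trypsin libraries, against 1628, 1553 and 1576 in the TrypLE libraries. Its log2 fold change, -1.22 (adjusted p = 6.12e-24) in the authors' deposited table, was close to that of KLF6, as its nearness implies. Its call too was kept in all 17 refits.

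**Figure D3:**
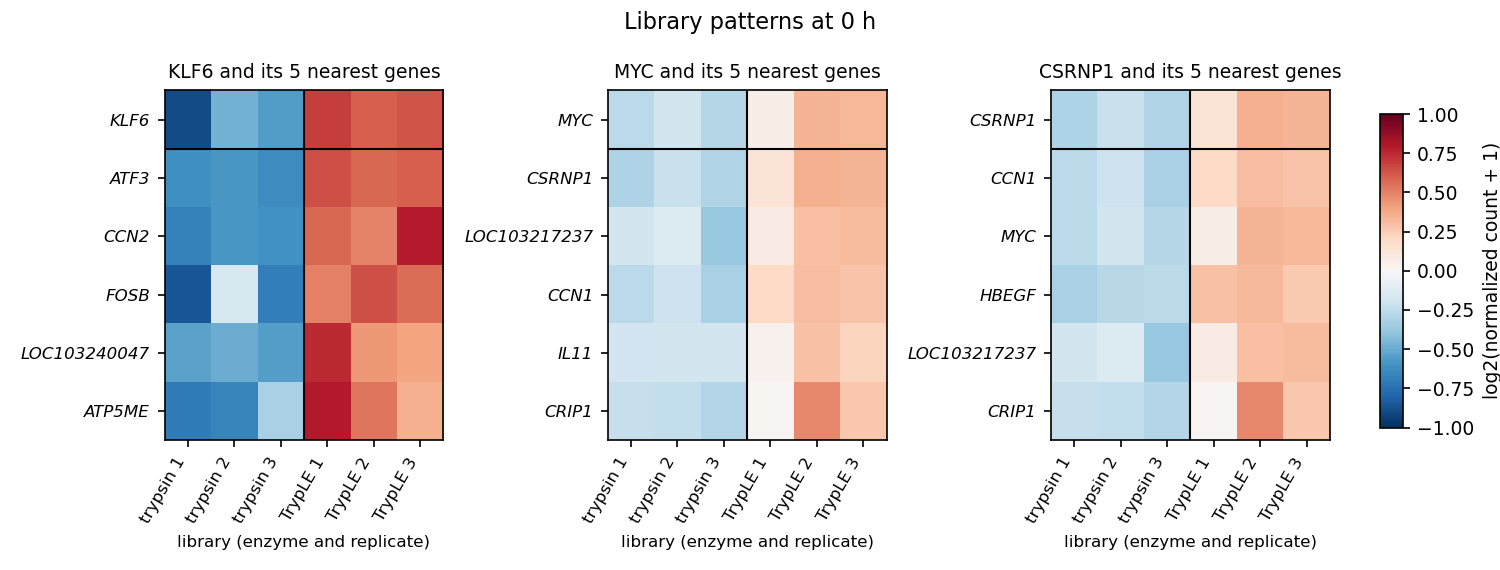
Centred log2(normalized count + 1) of each member (top row) and its 5 nearest genes in the 3 trypsin and 3 TrypLE libraries at 0 h. Colours run from -1 to 1, with KLF6 and its neighbours in stronger shades than MYC, CSRNP1 and theirs.

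The families of the members were mostly absent from the table. Of 17 KLF genes 14 were not listed, and KLF6 was the only called one of the 3 that were. KLF5 had 391 ± 75.5 normalized counts after trypsin, against 502 ± 27.8 after TrypLE, and KLF7 had 763 ± 187 after trypsin, against 969 ± 85.7 after TrypLE (SD, n = 3 each). Neither passed in the authors' deposited table, KLF5 at -0.36 (adjusted p = 0.51) and KLF7 at -0.35 (adjusted p = 0.599) on the log2 scale, although edgeR called KLF7 beside KLF6 once a trend on gene length was removed (-0.67, adjusted p = 0.04). Of 13 genes in the MYC and MAX network 11 were not listed. Beside MYC the table held MGA, a MAX partner that represses, which was not called at 0.46 in the authors' deposited table (adjusted p = 0.162). MGA is long, 12961 bases, and edgeR called it higher in 1 of the 17 refits, that without trypsin replicate 1 (0.62, adjusted p = 0.0394). CSRNP2, CSRNP3 and AXIN1 were not listed.

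Of 69 symbols on a list of MYC-activated growth genes, 5 were listed and 0 were called in the authors' deposited table, with 2 lower and 3 higher and a median log2 fold change of 0.34, against -0.29 over all listed genes. With the trend on length removed all 5 were on the higher side and 0 were called by edgeR, with a median of 0.18 against 0.02 over the genes tested. NOP16, a nucleolar protein of ribosome assembly, had -0.27 (adjusted p = 0.381) in the authors' deposited table, and UTP20, which processes ribosomal RNA, had 0.43 (adjusted p = 0.0854). DESeq2 and edgeR with the authors' factors also called 0, while edgeR called 1, UTP20, as higher with TMM factors (0.61, adjusted p = 0.0394) and without trypsin replicate 1 (0.54, adjusted p = 0.0467). All 5 have an unadjusted p below 0.05, as the table requires. The list of G1 to S regulators, 20 genes with the D and E cyclins among them, had 0 listed members. The 11 genes of MYC protein turnover had 1 listed, the deubiquitinase USP28, at 0.33 (adjusted p = 0.527) in the authors' deposited table. The 7 genes that bind AU-rich messages had 1 listed as well, ZFP36L2, at 0.27 (adjusted p = 0.566).

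On the list of growth arrest genes that MYC represses, 2 of 7 were listed. GADD45A, which arrests the cycle after stress, had 435.0, 388.8 and 387.6 normalized counts in the trypsin libraries, against 623.7, 653.5 and 639.3 in the TrypLE libraries. It was lower after trypsin in the authors' deposited table (log2 fold change -0.66, adjusted p = 0.000132), on the same side as MYC, and lost that call in 9 of the 17 refits, among them that with the length trend removed (-0.32, adjusted p = 0.509 by edgeR). GAS1, a growth arrest protein at the membrane, had 0.42 and did not pass (adjusted p = 0.0674). The median of both was -0.12, against -0.29 over all listed genes, and turned to 0.04 with TMM factors, 0.08 with median-ratio factors and 0.03 with the length trend removed.

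Among 22 other early transcription factors 12 were listed, all 12 lower after trypsin, and 6 were called in the authors' deposited table, with a median log2 fold change of -0.92. Of all 1237 listed genes, 57.1% were lower and 17.5% were called lower, with a median of -0.29. KLF6 lay beyond the median of the 12 early factors, -0.92, and MYC and CSRNP1 lay short of it. That median includes genes near the floor, such as NR4A3, with means of 0.693 normalized counts after trypsin and 11.7 after TrypLE. In edgeR it was -0.70 at a mean of at least 100 and -0.55 with TMM factors, with the members on the same sides of it. All members lay below the median of all listed genes. HES1, a repressor and Notch effector, at -1.68, NR4A1, an orphan nuclear receptor, at -1.66, and ATF3 led the called genes of that list in the authors' deposited table. TMM and median-ratio factors each left HES1, NR4A1, ATF3 and FOSB called in edgeR, of 11 tested that were all lower. FOS, an AP-1 subunit, was close to CSRNP1 and MYC, at -0.53 (adjusted p = 0.000872) in the authors' deposited table, and was called in 2 of the 17 refits, DESeq2 (adjusted p = 0.00712) and edgeR without trypsin replicate 1 (adjusted p = 0.0223).

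Gene length moved with the comparison. Of 360 listed genes under 1000 bases, 326 were lower after trypsin. The members are longer, and of the 156 listed genes between the lengths of MYC and CSRNP1 only 54 were lower (34.6%). These 156 had a median log2 fold change of 0.32, with 11 called lower and 3 called higher. The members thus stand on the side less common among listed genes of their length, but more common among the called ones. With the trend on length removed from each library, edgeR gave -1.38 for KLF6 (adjusted p = 0.000365), -0.73 for CSRNP1 (adjusted p = 0.0104) and -0.46 for MYC (adjusted p = 0.128), while it called 54 genes in all. Since the listed genes themselves gave the trend, a change common to the short ones goes with it. The median of 0.32 at the members' length also rests on listed genes only and enters the trend. Values with the trend removed therefore need not be nearer the true ones. With TMM and median-ratio factors over the listed genes, which by construction shift all genes about alike, the median of the genes tested was -0.13 and -0.09 in place of -0.29. Relative to the median of the genes tested, KLF6 was at -0.98, CSRNP1 at -0.26 and MYC at -0.20 with the authors' factors. With the length trend removed these values were -1.40 for KLF6, -0.75 for CSRNP1 and -0.48 for MYC, and leaving out 1 library gave -0.33 to -0.12 for MYC.

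**Figure D4:**
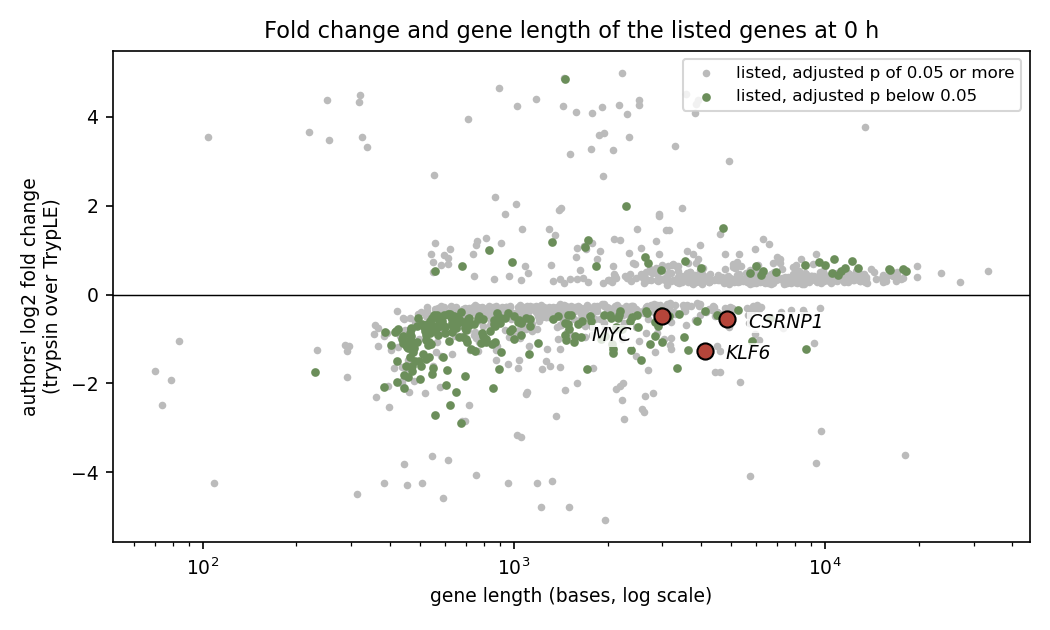
Authors' log2 fold change of trypsin over TrypLE at 0 h (vertical axis) against gene length in bases (log axis) for the 1237 listed genes, green where the adjusted p is below 0.05. The band around 0 is empty because the table holds no gene with an unadjusted p of 0.05 or more. The members lie below 0 at lengths where most listed genes lie above it, although 11 called genes lie below it there and 3 above.

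Group means extend KLF6 and CSRNP1 to the control and to later times, with no error and no n, so that the following ratios are descriptions. MYC is one of 98 genes, of the 251 the authors called, that this table does not list. The authors' means of KLF6 on the FPKM scale were 14.1, 15.4 and 15.9 at 0, 8 and 24 h after trypsin, 34.0, 14.9 and 25.5 at 0, 8 and 24 h after TrypLE, and 32.7 in the control. KLF6 was thus near the control directly after TrypLE, below the control in all trypsin groups, and low after both enzymes at 8 h. The control and TrypLE at 0 h differed by 1.33, against an SD of 1.10 between the TrypLE libraries at 0 h. The 4 lowest groups, trypsin at 24, 8 and 0 h and TrypLE at 8 h, lay within 14.1 to 15.9, a span below the SD of 2.12 between the trypsin libraries at 0 h.

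The ratio of KLF6 to the control was 0.43 after trypsin and 1.04 after TrypLE at 0 h, 0.471 after trypsin and 0.457 after TrypLE at 8 h, and 0.486 after trypsin and 0.78 after TrypLE at 24 h. These 6 ratios share the same control mean. KLF6 was past 1.5-fold lower in 4 of them. The share of the 340 genes past that fold on the lower side was 38.8% for trypsin and 18.2% for TrypLE at 0 h, 20% for trypsin and 21.8% for TrypLE at 8 h, and 21.2% for trypsin and 18.8% for TrypLE at 24 h. At most 10.9% of the genes had a lower ratio than KLF6 in any of the 4.

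The authors' means of CSRNP1 were 13.9, 16.9 and 14.4 at 0, 8 and 24 h after trypsin, 20.5, 13.8 and 23.4 at 0, 8 and 24 h after TrypLE, and 19.7 in the control. CSRNP1 followed the same outline after TrypLE, close to the control at 0 h, low at 8 h and higher again at 24 h. Its range was narrower, 1.69-fold from lowest to highest mean against 2.42-fold for KLF6. Its ratio to the control was 0.704 after trypsin and 1.04 after TrypLE at 0 h, 0.856 after trypsin and 0.703 after TrypLE at 8 h, and 0.733 after trypsin and 1.19 after TrypLE at 24 h, and none was past 1.5-fold lower. For trypsin at 0 h this was the middle of these 340 selected genes, with a log2 ratio of -0.51 for CSRNP1 and a median of -0.50. Neighbouring groups in the order of levels, such as trypsin at 24 h and 0 h or TrypLE at 0 h and the control, differed by 0.578 and 0.768, and the SDs between libraries at 0 h were 0.440 for trypsin and 1.66 for TrypLE.

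Both genes had lower means after trypsin than after TrypLE at 0 and at 24 h, and not at 8 h. Trypsin over TrypLE was 0.413, 1.03 and 0.623 for KLF6 and 0.677, 1.22 and 0.618 for CSRNP1 at 0, 8 and 24 h. At 0 h KLF6 alone was past 1.5-fold lower after trypsin, as were 35.9% of the 340 genes. At 24 h both genes were past it, as were 10.9% of the 340 genes, whereas the median log2 ratio of these genes was 0.03. The mean at 24 h over that at 8 h was 1.03 after trypsin and 1.71 after TrypLE for KLF6, and 0.857 after trypsin and 1.69 after TrypLE for CSRNP1. Past 1.5-fold higher between these times after TrypLE were 22.1% of the genes.

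**Figure D5:**
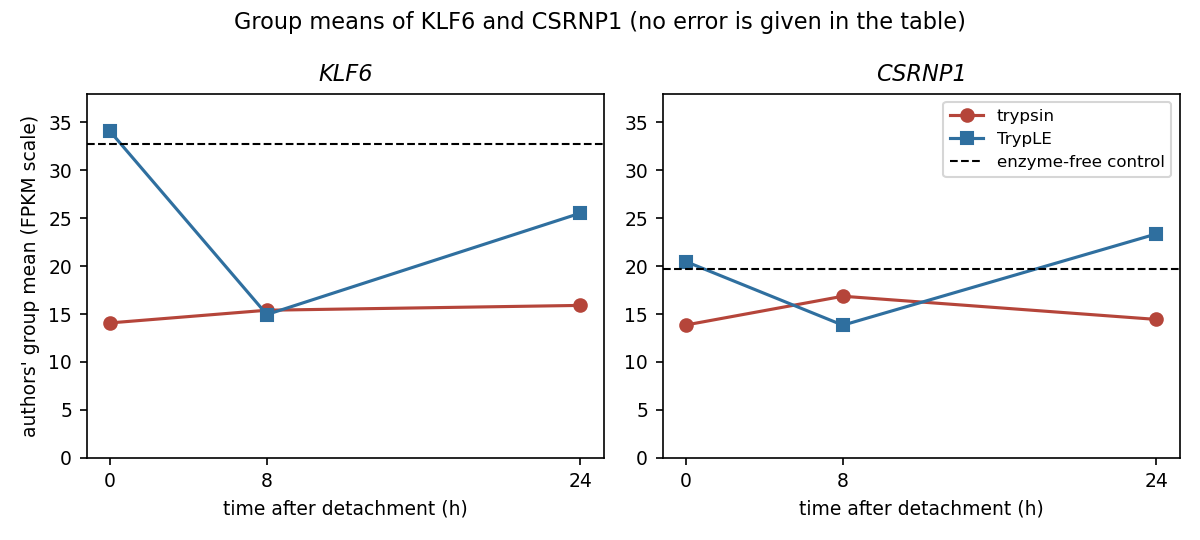
The authors' group means of KLF6 and CSRNP1 on the FPKM scale (vertical axes) at 0, 8 and 24 h after trypsin (circles) and TrypLE (squares), with the enzyme-free control as a dashed line. The lines join means without error. At 24 h the trypsin means, 15.9 and 14.4, lie below the TrypLE means, 25.5 and 23.4.

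Over the 7 group means the genes nearest to KLF6 were PPP1R15A, a phosphatase subunit of the stress response, at a root mean square distance of 0.26, CLK1, a splicing kinase, at 0.29, CSRNP1 and NR4A1, both at 0.31, and NFKBIA, an inhibitor of NF-kappaB, at 0.31. For CSRNP1 they were TMSB4X, which binds actin, at 0.20, CLK1, PPP1R15A and KRTCAP2, each at 0.20, and LOC103217237 at 0.21. A gene with the same mean in all groups would lie 0.50 from KLF6 and 0.27 from CSRNP1, so the neighbours of CSRNP1 are only slightly nearer than a flat profile, and KLF6 is farther from it. CLK1 and PPP1R15A stand on both lists, drawn from 197 other genes compared. At 0 h PPP1R15A kept its call in 2 of the 17 refits. CLK1 and NFKBIA were called neither by the authors nor in any refit. TMSB4X moved from -0.69 in the authors' deposited table to -0.06 with the length trend removed (edgeR). PPP1R15A had authors' means of 34.0, 35.6 and 43.1 at 0, 8 and 24 h after trypsin, 48.7, 34.8 and 55.4 at the same times after TrypLE, and 65.7 in the control. As PPP1R15A was picked for its nearness over these same means, a similar pattern follows from that choice. Its mean, like those of KLF6 and CSRNP1, was lower after trypsin than after TrypLE at 0 and 24 h but not at 8 h. The means at 8 h, 35.6 and 34.8, are close and have no error. Directly after TrypLE it was below the control mean, where KLF6 and CSRNP1 were slightly above theirs.

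In the authors' deposited pathway table MYC belonged to 32 of 274 pathways, and KLF6 and CSRNP1 to none. None of these 32 was among the 8 pathways that the authors' deposited table gives as passing 0.05 after adjustment. Transcriptional misregulation in cancer was the closest, with 23 listed genes, 7 higher and 16 lower after trypsin, and an adjusted p of 0.151.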

How the data were processed

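RNA of Vero cells was sequenced. The submitters' processing notes name HISAT2 2.0.5 and featureCounts 1.5.0-p3. What genome build, annotation, strand setting and test the authors used is not given in the sources used here. Positions are therefore left out, and reads of overlapping antisense genes cannot be told apart. The deposited library values are a signal, the read count of a gene divided by a size factor of its library, and 100% of values gave whole reads within 0.01. For TrypLE replicate 1 this rests on few low values. The log2 fold change (trypsin over TrypLE), p-value and adjusted p-value are the authors' own, the last a Benjamini-Hochberg adjustment over 15194 genes. 101 listed genes with means up to 13.1 have an adjusted p of 1. The deposited group means have no named unit. They equal normalized counts per kilobase divided by 15.7, so the authors' values are taken as FPKM. The deposited pathway table gives the number of listed genes and the authors' p-value for each pathway.

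The table is cut at an unadjusted p of 0.05, so the authors' test is the main result. Refits of the listed genes used edgeR 4.0.16 on recovered reads (170 genes called), DESeq2 1.42.0 and limma 3.58.1 on log2(normalized count + 1), with R 4.3.3, the authors' size factors and adjustment over 15194 genes. Other steps used Python 3.11.15, scipy 1.17.1 and pandas 2.3.3. Fits were tested on simulated data. The members and the 10 gene lists were chosen with earlier results of these data known. Named genes are the members, at most 3 called genes a list and direction, and the 5 nearest genes of each member. Others were named after their values were seen, such as uncalled list members and FOS.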

Additional observations from a re-analysis of the deposited data

How the results depend on the processing

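KLF6 kept its direction and its call in all 17 alternatives, between -1.39 and -1.06. CSRNP1 and MYC kept their direction in all 17, while their calls depended on the fit. CSRNP1 was not called at -0.55 by limma with a pseudocount of 8 (adjusted p = 0.0507), at -0.39 with TMM factors, at -0.36 with median-ratio factors or at -0.56 with the replicate block (adjusted p = 0.0598 by edgeR). Leaving out 1 library gave -0.62 to -0.52 (adjusted p = 0.0419 to 0.306 by edgeR). MYC was not called at -0.49 by edgeR with the authors' factors, with no filter, with a mean of at least 100 or with the replicate block (adjusted p = 0.0707), nor at -0.49 and -0.48 by limma with a pseudocount of 1 and 8. It was at -0.33 with TMM factors, -0.29 with median-ratio factors, -0.46 with the length trend removed and -0.46 with replicate block and length trend (adjusted p = 0.0552). Leaving out 1 library gave -0.58 to -0.44 (adjusted p = 0.0588 to 0.619). TMM and median-ratio factors came from the listed genes alone, whose median they move towards 0. The cause of the lost calls was not tested.

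The count of called genes was 251 in the authors' table (35 higher, 216 lower). It was 155 and 145 by limma with a pseudocount of 1 and 8, 130 with median-ratio factors (53 higher, 77 lower), 160 with no filter, 152 with a mean of at least 100, 54 with the length trend removed (21 higher, 33 lower) and 78 with the replicate block as well (29 higher, 49 lower). TMM factors gave 183 (77 higher, 106 lower). Leaving out 1 library gave 93 (TrypLE replicate 1) to 217 (trypsin replicate 1), and 112 for TrypLE replicate 2.

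With the length trend removed CRIP1 reversed to 0.27, or 0.29 with the replicate block as well, and KRTCAP2 to 0.14 and 0.15. The ratios between members kept their sign in all 8 alternatives each. Same-numbered libraries deviated together little (correlations of -0.00, 0.07 and -0.05 over 1024 genes), and pairs with unlike numbers reached 0.10 and -0.09. With 3 libraries a group these values cannot show whether same-numbered libraries had more than a number in common. With the block edgeR called 172 genes. Precision is limited by 3 libraries a group, and the refits by a table cut at an unadjusted p of 0.05.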

Other observations

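Genes that share pathways with MYC had values on both sides. Among all 1237 listed genes, 57.1% were lower after trypsin, 17.5% were called lower and 20.3% were called in either direction, so most called genes of the table as a whole are lower. The cell cycle pathway held 13 listed genes, and the 4 called ones, all lower after trypsin in the authors' deposited table, were MYC, GADD45A, GADD45B (-0.46, adjusted p = 0.0332), of the same stress-induced family, and RBX1 (-0.55, adjusted p = 0.0117), a subunit of ubiquitin ligases. The other 9 had positive log2 fold changes in the authors' deposited table and did not pass, among them the mitotic genes PLK1 (0.34, adjusted p = 0.0793) and CCNB1 (0.37, adjusted p = 0.109) and the DNA damage kinases ATM (0.58, adjusted p = 0.0797) and ATR (0.44, adjusted p = 0.161). These genes were chosen for mention after their values were seen.

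The MAP kinase pathway held 19 listed genes, 16 with a lower and 3 with a higher value after trypsin, and 10 were called, all lower, in the authors' deposited table, to be read beside the shares of all listed genes above. MYC had one of the smaller of these changes, above GADD45B and below FOS in size, whereas DUSP5 (-1.47) and DUSP1 (-1.31), phosphatases that switch off MAP kinases, had larger ones in the authors' deposited table. The Wnt pathway held 9 listed genes, 3 lower and 6 higher, of which MYC and RBX1 were called.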
